A study of Mus musculus with 4 samples.

Results

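The data are binding sites of the miRNA effector protein Argonaute 2 (AGO2) in 3'UTRs of mouse embryonic stem cells (ESCs), taken from messenger RNAs that carried at least 3 such sites in ESCs and no 3'UTR site in C2C12 myotubes. A site is a cluster, a stretch of RNA covered by crosslinked reads, as the authors called it. The rule kept 59 genes of the 871 with a named 3'UTR cluster in the ESC table (6.77%). Their 257 clusters were 19.4% of the 1325 ESC 3'UTR clusters (exact 95% interval 17.3 to 21.6) and held 2992 of 15585 reads in that class. The full ESC table had 2659 clusters and 214955 reads, and the myotube table had 889 clusters and 135023 reads.

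The libraries came from photoactivatable-ribonucleoside crosslinking and immunoprecipitation (PAR-CLIP), in which crosslinked positions show up in the reads as T-to-C conversions. The ESC library was made from the cytoplasm of cells grown with leukemia inhibitory factor, in which 2.5 ug/ml doxycycline over 15 h had switched on an HA-Flag-AGO2 transgene, and the protein was captured through its FLAG tag. The myotube library was made from the cytoplasm of C2C12 cells, a mouse myoblast line, after 2 days as myotubes, with a peptide that binds all Argonaute proteins. Both were crosslinked at 312 nm for 5 min and treated with RNase T1, an enzyme specific for G. The labels list 4 samples, 1 per group. Every title ends in (2), which the labels do not explain, and each sample was taken as 1 library. The nuclear libraries were not analysed here. Between these libraries cell type, Argonaute source and capture method changed at the same time and cannot be told apart, and AGO2 in the ESCs was the induced, tagged protein. RNA levels were not measured, so more binding and more RNA cannot be told apart either. Of 40 ESC markers 18 had an ESC cluster and 0 a myotube cluster, and of 40 muscle markers 5 had an ESC cluster and 12 a myotube cluster.

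A miRNA guides Argonaute to a messenger RNA mainly by pairing of its seed, bases 2 to 8, with a site in the 3'UTR, and bound mRNAs are translated less and decay faster. Many 3'UTRs hold several sites, for the same or for different miRNAs, and sites that lie close together can act together. In ESCs the miR-290 and miR-302 miRNAs and the miR-17 family, which share most of their seed letters, are known to act on cell cycle and pluripotency networks.

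The number of clusters per gene chose these genes and is given as a description. Without a myotube 3'UTR cluster stood 59 of the 91 genes with 3 or more ESC 3'UTR clusters (64.8%), against 754 of all 871 ESC 3'UTR genes (86.6%). Of the 59 genes, 30 had 3 clusters, 17 had 4, and 12 had 5 or more, up to 15. Just inside the threshold, the genes with exactly 3 clusters had a median of 29 reads, led by Sox2 (14, 20 and 30 reads), Usp28 (11, 10 and 39 reads) and Paics (6, 29 and 21 reads). Just outside it, the 111 ESC-only genes with exactly 2 clusters had a median of 18 reads. They were led by the actin-binding gene Pfn1 (135 and 12 reads), Pafah1b2 (5 and 113 reads) and Polr2a (72 and 22 reads). Clusters of the 59 genes held a median of 9 reads, with a range of 5 to 65, and 140 of the 257 had fewer than 10. When only clusters with at least 10 reads were counted in both tables, 27 genes met the rule.

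Of the 257 clusters, 15 in 15 different genes held a site of 7 nt complementary to the seed of a miRNA family of the ESC group searched. They are shown because their sequence holds the site of a named miRNA family, in RNA sense on mm10 coordinates, with the site in capitals. A match of 7 nt alone does not show that this family guided AGO2 there, which was not tested. Clusters longer than 30 nt are trimmed to 30 nt around the site, and clusters are numbered from the upstream end of the 3'UTR.
Cnot6 cluster 3, miR-17 site (chr11:49672192-49672212, minus strand): ttatttcatattaGCACTTTg
Eif4g2 cluster 2, miR-17 site (chr7:111072304-111072333, minus strand): atGCACTTTgctcagtaatacttgagttgt
Eif4g2 cluster 2, miR-26 site (chr7:111072297-111072326, minus strand): ttgctcagtaaTACTTGAgttgttgcaata
Csnk2a1 cluster 4, miR-290 site (chr2:152281572-152281594, plus strand): acactatttctcAGCACTTcctg
Sbno1 cluster 4, miR-290 site (chr5:124371582-124371608, minus strand): attcttactcAGCACTTaaaccttttg
Usp28 cluster 3, miR-25 site (chr9:49042472-49042494, plus strand): gttttataaatGTGCAATaaaag
Zmat3 cluster 5, miR-25 site (chr3:32337232-32337261, minus strand): tccatttcctaGTGCAATctcaatttgctt
Fem1b cluster 3, miR-96 site (chr9:62794847-62794868, minus strand): taatttcctctaGTGCCAAatg
Tfcp2l1 cluster 12, miR-96 site (chr1:118683386-118683415, plus strand): ttttctcttGTGCCAAcatacttaatttta
Ubxn7 cluster 3, miR-26 site (chr16:32392828-32392850, plus strand): tatctTACTTGAgatcattgaag
G3bp2 cluster 2, miR-19 site (chr5:92053410-92053432, minus strand): tcactcatTTTGCACaactcttg
Snx5 cluster 1, miR-130 site (chr2:144251120-144251145, minus strand): catcacTTGCACTtaaatcattactg
Klhl13 cluster 2, let-7 site (chrX:23219863-23219892, minus strand): CTACCTCcctcttttcataaagtatttttg
Mycn cluster 2, miR-29 site (chr12:12936668-12936696, minus strand): cattccttctttttacaaTGGTGCTtaag
Paics cluster 2, miR-142 site (chr5:76967133-76967155, plus strand): ACACTACtaaatttattctcacg
Slc2a3 cluster 7, miR-101 site (chr6:122727849-122727878, minus strand): tactttctattaatgtTACTGTAgtttctg

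The miRNAs of the families with a site in more than 1 gene are shown next, as 1 mature sequence per family from RefSeq (GRCm38.p6), with the seed in capitals. Read backwards and complemented, each seed gives the capitals of the sites above.
miR-17-5p, miR-17 family: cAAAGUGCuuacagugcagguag
miR-294-3p, miR-290 family: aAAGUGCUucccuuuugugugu
miR-25-3p, miR-25 family: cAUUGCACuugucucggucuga
miR-26a-5p, miR-26 family: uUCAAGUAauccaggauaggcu
miR-96-5p, miR-96 family: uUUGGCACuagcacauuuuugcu

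No 3'UTR of the 59 held a seed match in more than 1 of its clusters, and in 44 of them no cluster held one. The 15 clusters with a match had 5 to 39 reads, with a median of 14, against a median of 9 in the other 242 clusters. They were the leading cluster of their gene, the one with the most reads, in 6 cases. Those were the clusters of Usp28 (39 reads), G3bp2 (32 reads), Paics (29 reads), Snx5 (26 reads), Sbno1 (18 reads) and Zmat3 (14 reads). With tied clusters counted, the leading share was 40% of the 15 and 23.6% of the other 242 (57 clusters), and was not tested. The 15 clusters had a median length of 26 nt, against 22 nt for the others, so they also gave more sequence in which a match could lie. The Cnot6 cluster held the miR-290 site as well, since that site (AGCACTT) overlaps the miR-17 site (GCACTTT) in 6 letters. In Eif4g2, the miR-17 and miR-26 sites lay in the same cluster. Of the 6 families searched that belong to muscle or other tissues, 1 had a match, the miR-1 site ACATTCC in Poldip3 cluster 2 with 8 reads.

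Seed matches were found in 5.84% of these clusters (interval 3.30 to 9.44). The share was 9.80% (interval 7.84 to 12.1) in the 806 clusters of ESC-only 3'UTRs with 1 or 2 clusters, and 5.34% (interval 2.95 to 8.80) in the 262 ESC clusters of genes with 3'UTR clusters in both cell types. Over all 1325 ESC 3'UTR clusters it was 8.15%. The miR-17 site was in 2 of the 257 clusters (0.778%) and in 32 of the 806 (3.97%), and over all ESC 3'UTR clusters in 38 (2.87%). The miR-290 site was in 3 (1.17%) and 22 (2.73%), and in 27 overall (2.04%). The miR-25 site was in 6 clusters overall (0.453%), the miR-96 site in 5 (0.377%), and both clusters of the whole class with a miR-26 site (0.151%) were those of Eif4g2 and Ubxn7. The 6 letters that the miR-17 and miR-290 sites share, GCACTT, were chosen for a count after their values were seen, and were in 6 of the 257 clusters (2.33%, interval 0.861 to 5.01), in 57 of the 806 (7.07%, interval 5.40 to 9.07) and in 10 of the 262 (3.82%). These differences were not tested, since clusters of 1 library are not replicates. The sites were searched on the RNA strand, within the clusters only.

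**Figure D1:**
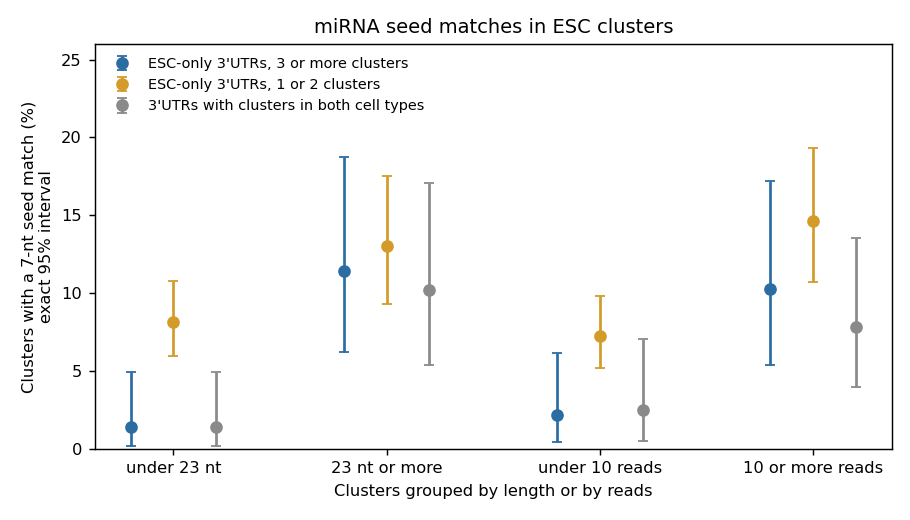
Share of ESC 3'UTR clusters with a 7-nt seed match (y, in percent) for clusters grouped by length and, separately, by reads (x), with exact 95% intervals. In clusters under 23 nt the share was 1.40% in ESC-only 3'UTRs with 3 or more clusters and 8.13% in those with 1 or 2, and in clusters of 23 nt or more it was 11.4% and 13.0%.

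Length and depth moved with the seed matches, so the shares were also taken within classes, chosen after the data were seen. Among clusters under 23 nt, 2 of 143 held a match in the 59 genes (1.40%, interval 0.170 to 4.96) and 43 of 529 in ESC-only genes with 1 or 2 clusters (8.13%, interval 5.94 to 10.8). Among clusters of 23 nt or more, the counts were 13 of 114 (11.4%, interval 6.21 to 18.7) and 36 of 277 (13.0%, interval 9.27 to 17.5). These intervals cover counting error alone, clusters of 1 library are not replicates, and whether the difference itself depended on length was not tested. By reads, clusters with fewer than 10 had a match in 3 of 140 (2.14%, interval 0.444 to 6.13) and 38 of 526 cases (7.22%, interval 5.16 to 9.78). Clusters with at least 10 had one in 12 of 117 (10.3%, interval 5.41 to 17.2) and 41 of 280 cases (14.6%, interval 10.7 to 19.3). The short clusters of genes bound in both cell types had a low share too, with 2 of 144.

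The 4 genes with at least 10 clusters were Nucks1, Tfcp2l1, Trp53inp1 and Tet1. Nucks1, a chromatin-associated nuclear protein, had 15 clusters over 3873 nt of chromosome 1 (131932145 to 131936017). From the upstream end they had 7, 25, 32, 20, 9, 11, 38, 21, 5, 6, 6, 9, 45, 6 and 21 reads. The reads thus stood in several groups along the 3'UTR, with the leading cluster near the downstream end. Tfcp2l1, which encodes a factor of the naive pluripotent state, had 15 clusters over 7172 nt of chromosome 1, with 7, 7, 20, 14, 17, 25, 9, 6, 6, 14, 23, 11, 7, 7 and 9 reads. Its leading cluster held 13.7% of the reads, the lowest leading share of the 59 genes.

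Trp53inp1, a p53-induced gene of stress response and autophagy, had 10 clusters over 3530 nt of chromosome 4, with 19, 22, 15, 15, 10, 6, 23, 24, 5 and 5 reads. Tet1, which oxidises methylated cytosine in DNA, also had 10 clusters, with 5, 6, 5, 9, 13, 12, 16, 12, 7 and 8 reads over 7337 nt of chromosome 10. No cluster of Tet1 or Trp53inp1 was above 24 reads. These 4 genes together held 50 of the 257 clusters (19.5%).

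The leading clusters of 6 of the 7 genes with the most sites are shown because they mark where the reads were highest, with the longest run of C and T in capitals, on mm10 coordinates and in RNA sense.
Nucks1 cluster 13 (chr1:131935433-131935457, plus strand): aaTTCTTTCCCTTTTCCTCTggaag
Tfcp2l1 cluster 6 (chr1:118680795-118680818, plus strand): TTTTTCCTggcactaacacttcct
Trp53inp1 cluster 8 (chr4:11173480-11173499, plus strand): caaccctaTCTTCTTattct
Tet1 cluster 7 (chr10:62808695-62808718, minus strand): acattaacctactaaCTCTTCCCg
Slc2a3 cluster 5 (chr6:122728020-122728040, minus strand): tattcaaCTCTCCactccctg
Prrc2b cluster 4 (chr2:32232584-32232606, plus strand): aagcaaacaTTTTTCTCTTTCag

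Of the 7 genes with at least 7 clusters, G3bp2 is the other one, and its leading cluster, shown above, held the miR-19 site. The 6 leading clusters shown here held no seed match of the families searched. The run of C and T in the Nucks1 cluster was 18 nt long, and that of Prrc2b 12 nt. Such runs were not rare in the whole class. A run of at least 8 nt was in 33.5% of the 257 clusters (interval 27.7 to 39.6), in 32.5% of those of ESC-only genes with 1 or 2 clusters and in 30.2% of those of genes bound in both. The median longest run was 6 nt in each set.

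**Figure D2:**
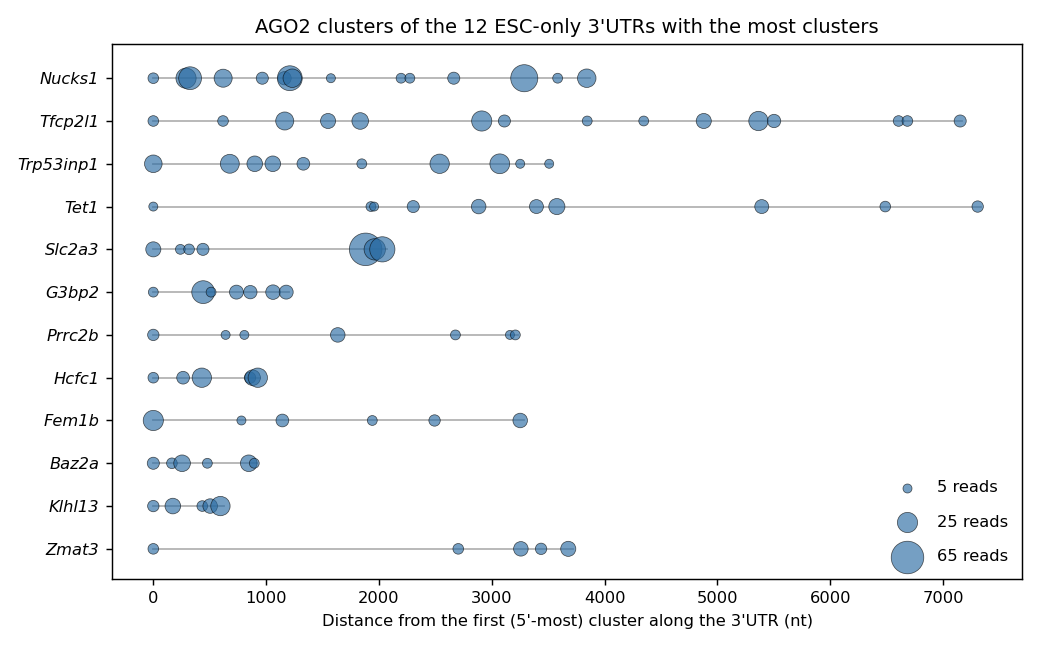
Positions of the clusters of the 12 genes with the most 3'UTR clusters, as the genomic distance in nt from the most upstream cluster (x), with 1 line per gene and circle area in proportion to reads. Slc2a3 had its 3 leading clusters together at the downstream end, while the clusters of Tfcp2l1 and Tet1 were spread over 7172 and 7337 nt.

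The next genes had 5 to 7 clusters. Slc2a3, a glucose transporter of high affinity, had 14, 6, 7, 9, 65, 28 and 39 reads, and 3 clusters at the downstream end, 1882 to 2030 nt from the most upstream one, held the most. Its leading cluster of 65 reads was the largest of all 257. G3bp2, a stress granule protein, had 6, 32, 6, 12, 11, 13 and 12 reads, with the miR-19 site in the leading cluster. Prrc2b, an RNA-binding protein linked to translation, had 7 clusters with 8, 5, 5, 13, 6, 5 and 6 reads.

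Hcfc1, a transcription coregulator that works with chromatin enzymes, had 7, 10, 23, 8, 15 and 23 reads over 946 nt of chromosome X. Fem1b, a substrate receptor of a cullin ubiquitin ligase, had 25, 5, 10, 6, 8 and 13 reads over 3288 nt. Baz2a, a subunit of a remodelling complex that silences ribosomal DNA, had 9, 7, 17, 6, 17 and 6 reads over 918 nt. Hcfc1 and Baz2a thus had as many clusters as Fem1b over a shorter distance, at 6.34 and 6.54 clusters per kb against 1.82. Klhl13, an adaptor of another cullin ligase, had 8, 15, 7, 13 and 23 reads. Zmat3, a p53-induced zinc finger protein, had 7, 7, 13, 8 and 14 reads.

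The 59 genes were put into 8 groups by function after their symbols were seen, so the group sizes are descriptions. The pluripotency group had 5 genes with 29 clusters and 381 reads. Beside Tfcp2l1, the nuclear receptor gene Esrrb had 21, 16, 6 and 6 reads, and Sox2, a core factor of the pluripotency network, had 14, 20 and 30 reads. The proto-oncogene Mycn had 10, 11 and 19 reads, and Trim71, a let-7 target that binds RNA, had 6, 10, 17 and 13 reads. In Sox2 and Mycn the reads were highest at the downstream end, and in Esrrb at the upstream end. Of the 40 ESC markers, 15 had an ESC 3'UTR cluster and 5 had 3 or more, against 91 of all 871 ESC 3'UTR genes. No ESC marker had a myotube cluster, so the rule by itself placed those 5 among the 59 genes.

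The chromatin and transcription group had 11 genes, 62 clusters and 725 reads. Beside Nucks1, Tet1, Hcfc1 and Baz2a it held Phf17 (now Jade1), a subunit of a histone acetyltransferase complex, with 8, 11, 6 and 14 reads, and Aff4, a scaffold of the super elongation complex, with 6, 9, 6 and 6 reads. Tead1, the transcription factor of the Hippo pathway, had 10, 8, 7 and 6 reads, and Rbpj, the transcription factor of Notch signalling, had 9, 7 and 6 reads. These 4 genes had low counts at every site, and no cluster of theirs was above 14 reads. Sbno1 had 36 reads in 4 clusters, Hdgf 43 reads in 3 and Setd5 25 reads in 3.

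The RNA and translation group had 11 genes, 44 clusters and 434 reads, and included machinery that acts on mRNAs themselves. Cnot6, a deadenylase subunit of the CCR4-NOT complex that Argonaute recruits to its targets, had 9, 7, 6 and 6 reads over 3309 nt. Igf2bp1, an oncofetal RNA-binding protein, had 16, 5, 6 and 9 reads. The translation initiation factor genes Eif4b (13, 12, 10 and 5 reads) and Eif4g2 (17, 10 and 9 reads) and the ribosome recycling factor gene Abce1 (16, 12 and 18 reads) had clusters of like size. The helicase genes Ddx17 (33 reads) and Ddx21 (18 reads), Poldip3 (32 reads) and Rbpms2 (25 reads) had 3 clusters each.

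The group of p53 response and ubiquitin genes had 9 members, 41 clusters and 473 reads. Of its 41 clusters 5 had a seed match, against 5.84% of all 257 and 8.15% of all 1325 ESC 3'UTR clusters. The other groups had 0 to 3 such clusters each, out of 11 to 62. Group sizes differ, the groups were made after the symbols were seen, and no difference between them was tested. Usp28, a deubiquitinase, had 11, 10 and 39 reads, with the miR-25 site in the cluster of 39 reads at the downstream end. The ligase adaptor Ddb1 had 13, 6 and 5 reads in its 3'UTR and 71 reads in 4 clusters of its coding sequence. Ubxn7, a cofactor of the p97 segregase, had 25 reads, Tnks2, a tankyrase, 23, and the deubiquitinase gene Otud4 15, in 3 clusters each. Otud4 had 5 reads at each of its 3 clusters, the lowest total of the 59 genes.

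Cytoskeleton and adhesion genes (6 genes, 20 clusters, 294 reads) had a median gap of 126.5 nt, and the medians of the other groups ran from 175.5 to 441.5 nt, each over few gaps and without a test. The actin gene Actb had 20, 51, 15 and 18 reads within 433 nt, and the tubulin gene Tubb5 had 6, 23 and 18 reads. Tagln2, an actin-binding protein, had 24, 6 and 13 reads within 330 nt, and E-cadherin, Cdh1, had 12, 10 and 13 reads. Rap1b, a small GTPase, had 43 reads in 4 clusters, and Basp1, a membrane-bound protein, 22 reads in 3. Actin and tubulin belong to families of similar genes, and the sources used here do not say how reads that match several genes were treated.

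Transport and trafficking genes (8 genes, 30 clusters, 390 reads) included, beside Slc2a3, sorting proteins of the endosome. Snx5 had 26, 10 and 17 reads within 162 nt, Snx27 had 28 reads over 1109 nt, and the retromer subunit gene Vps26a had 17, 7 and 6 reads. Kpnb1, the importin beta of nuclear import, had 8, 5, 6 and 5 reads, and the lectin gene Mlec had 17 reads in 3 clusters. The arrestin family gene Arrdc3 had 35 reads in 3 clusters, and Cpne3, a phospholipid-binding protein, 35 reads in 4. The signalling group (6 genes, 163 reads) held the kinase genes Csnk2a1 (37 reads) and Stk38 (32 reads), the phosphatase gene Ppp6c (24 reads), the Wnt antagonist gene Sfrp1 (23 reads), the growth factor gene Pdgfc (19 reads) and the surface peptidase gene Mme (28 reads). The metabolic group held Paics of purine synthesis (56 reads), Idh3a of the citric acid cycle (40 reads) and the ethanolamine kinase gene Etnk1 (36 reads).

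Of the wider lists, 33 of 76 RNA-binding genes had an ESC 3'UTR cluster and 4 were among the 59 genes. The counts were 17 of 79 and 2 for chromatin genes, 18 of 95 and 5 for transcription factors, 24 of 65 and 2 for transport and membrane genes, and 21 of 81 and 3 for signalling genes. They were 9 of 54 and 1 for the cell cycle and p53, 10 of 29 and 1 for the miRNA pathway, and 9 of 56 and 1 for ubiquitin genes. Over all ESC 3'UTR genes, 59 of 871 belonged to the set, and these small counts are not read against that share. No muscle, neuron, blood and liver or fibroblast marker was among the 59 genes, out of 40, 10, 10 and 10 listed, and 3, 0, 0 and 0 of those had an ESC 3'UTR cluster.

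To see how far apart the sites lay, the gap between neighbouring clusters of a gene was measured on the genome, from the end of a cluster to the start of the next. Over 198 neighbouring pairs the median gap was 255 nt, with quartiles of 103 and 585 nt. A gap under 50 nt separated 31 pairs (15.7%, interval 10.9 to 21.5), which came from 25 of the 59 genes. A further 54 pairs were at least 50 but under 200 nt apart, 86 at least 200 but under 1000 nt, and 27 at least 1000 nt. Most neighbours were thus separated by many times the cluster length, whose median was 22 nt. Genes with at least 3 ESC clusters and 3'UTR clusters in both cell types had a median gap of 213.5 nt over 120 pairs, with 17.5% under 50 nt (interval 11.2 to 25.5). Introns within 3'UTRs were not removed.

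**Figure D3:**
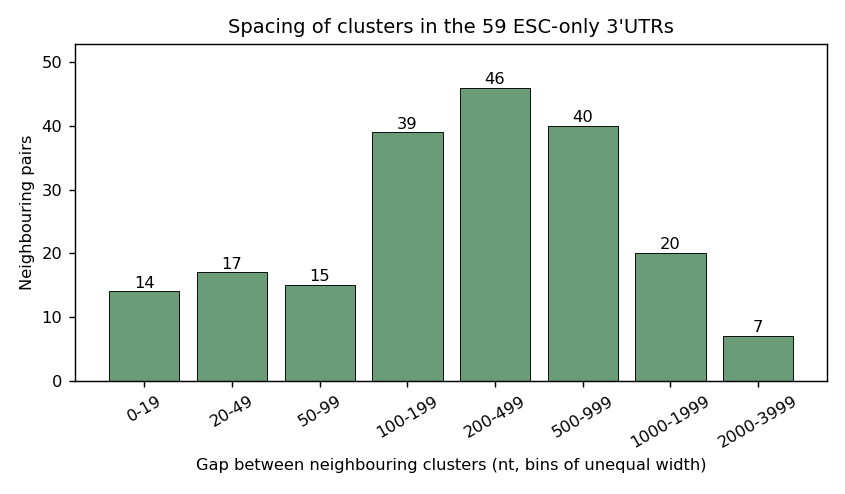
Number of neighbouring cluster pairs (y) by the gap between them in nt (x, bins of unequal width) in the 59 ESC-only 3'UTRs. Of 198 pairs, 14 were under 20 nt apart and 27 were at least 1000 nt apart.

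The closest pairs touched or nearly touched. Clusters 4 and 5 of Hcfc1 were adjacent, with a gap of 0 nt, and clusters 7 and 8 of Nucks1 were 2 nt apart. Pairs in Ppp6c, Sfrp1 and Tet1 were 3 nt apart. Pairs from Hcfc1 and Nucks1 are shown as examples of such neighbours, with the longest run of C and T in capitals.
Hcfc1 cluster 4 (chrX:73942948-73942970, minus strand): aatccactcacctgTTCCCTTTg
Hcfc1 cluster 5 (chrX:73942927-73942947, minus strand): ttttccctaTCCCTTCTCCTg
Nucks1 cluster 7 (chr1:131933355-131933374, plus strand): aTTTTatctacctataattg
Nucks1 cluster 8 (chr1:131933377-131933396, plus strand): aaataatactaTCTTCTacg

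The upstream cluster ended in G, the base at which RNase T1 cleaves, in 4 of the 5 closest pairs, and in T in that of Sfrp1. Over all 257 clusters, 217 ended in G (84.4%). The Hcfc1 clusters had 8 and 15 reads, and 50% and 26.7% of their reads were converted. The Nucks1 clusters had 38 and 21 reads, with 57.9% and 47.6% converted. Merging clusters within 20 nt of each other left 53 genes and 231 clusters, so most genes did not owe their place to such pairs. Whether 2 called clusters are pieces of a single bound stretch was not tested.

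The distance from the most upstream to the most downstream cluster had a median of 946 nt and ranged from 146 nt in Mme to 7337 nt in Tet1. It was under 500 nt in 13 genes and the 12 widest spans ran from 3230 nt in Prrc2b upward. The widest spacing was that of Ubxn7, whose closest clusters were 2652 nt apart. Density ran from 0.462 clusters per kb in Ubxn7 to 20.5 in Mme. Across the 59 genes, cluster number and span had a Spearman correlation of 0.58, given as a description of genes of 1 library. With RefSeq gene models (GRCm38.p6, the same assembly as mm10), the most downstream cluster lay a median of 364 nt before the end of the gene, and within 500 nt of it in 33 genes. In Trim71 it lay 3359 nt past the RefSeq end, and the authors' annotation still placed it in the 3'UTR. Clusters 2, 3 and 4 of Trim71 (10, 17 and 13 reads) all lay past that end. Only cluster 1 (6 reads) lay before it, so within the RefSeq model this gene would not meet the rule.

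The reads were then compared across the sites of each gene. The leading cluster held a median of 42.5% of a gene's 3'UTR cluster reads, from 13.7% in Tfcp2l1 to 65% in Usp28. An even split gives 33.3% for 3 clusters and 6.67% for 15. The leading cluster had a median of 1.55 times its even share, and it can by construction not fall below that share. The number of equally read clusters that would give the same spread (the inverse of the summed squared shares) had a median of 87.1% of the clusters called. Reads were thus divided over the sites in most genes, and the leading cluster held more than 50% in 10 of the 59. The rule asks for at least 3 clusters, and each member cluster had at least 5 reads, against a median of 36 reads per gene. That limits how uneven a gene could be, so the spread is in part set by the rule.

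The most uneven genes had 3 clusters each. After Usp28 came Hdgf (27, 10 and 6 reads, 62.8% in the leading cluster), Ubxn7 (5, 15 and 5 reads, 60.0%), Poldip3 (5, 8 and 19 reads, 59.4%) and Vps26a (56.7%). At the other end, after Tfcp2l1, stood Trp53inp1 (16.7%), Tet1 (17.2%), Nucks1 (17.2%) and Hcfc1 (26.7%). These have many clusters, which lowers the share by itself. Relative to an even split, Slc2a3 was the most uneven, at 2.71 times, followed by Nucks1 at 2.59 times and G3bp2 at 2.43 times. In some genes the reads of the leading cluster came from few distinct sequences. Examples were 65 reads from 11 in Slc2a3, 39 reads from 8 in Usp28 and 32 reads from 8 in G3bp2. In others they came from more, such as 51 reads from 29 in Actb and 25 reads from 14 in Fem1b. The 257 clusters together held 2992 reads and 1397 distinct sequences, counted per cluster. In Slc2a3 the cluster with the most distinct sequences was another one, cluster 7, with 39 reads from 23.

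**Figure D4:**
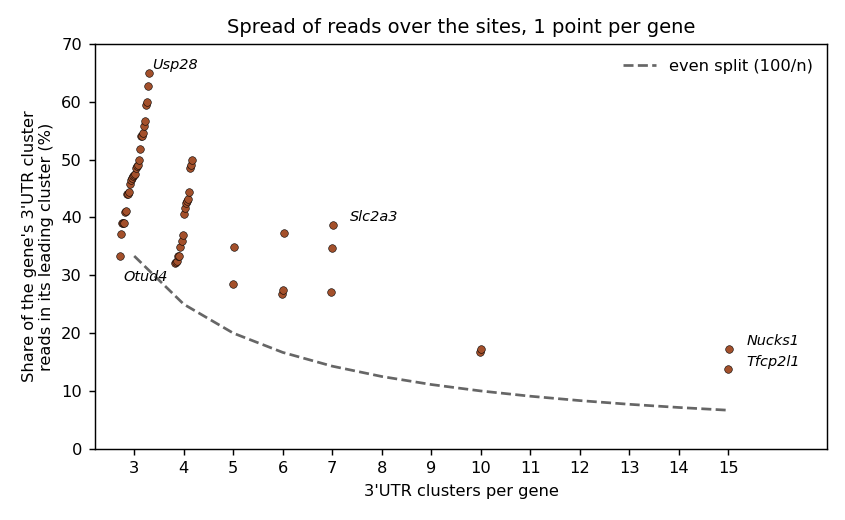
Share of a gene's 3'UTR cluster reads in its leading cluster (y, in percent) against its number of clusters (x), with 1 point per gene, points of equal cluster number spread sideways, and the even split as a dashed line. Usp28 stood highest at 65% and Tfcp2l1 lowest at 13.7%, and Slc2a3 stood farthest above the even split as a ratio.

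The leading cluster was the most upstream of its gene in 19 genes, the most downstream in 15 and an inner one in 22, with a tie in 3. Neither end of the 3'UTR therefore held the leading cluster in most genes. Genes with at least 3 ESC clusters that were bound in both cell types had a median leading share of 40.0% over 32 genes, close to the 42.5% of the ESC-only genes, and the difference was not tested.

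Conversion was compared next, as the share of converted among converted and unconverted reads. Every deposited cluster had at least 2 converted positions, so the level is not independent of how clusters were kept. Over all 257 clusters 2022 of 2951 such reads were converted, 68.5% (interval 66.8 to 70.2). The median per cluster was 75% of all its reads (quartiles 57.9 and 92.3), and in 62 clusters every read was converted. Clusters had a median of 3 converted positions, up to 8. Low counts went with high conversion, with a Spearman correlation of -0.60 between reads and converted share over the 257 clusters, which share a library and a caller. No member cluster had fewer than 4 converted reads, so a cluster of 5 reads could not fall below 80%. The correlation is thus in part fixed by which clusters were kept, and is not read as a result about binding.

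**Figure D5:**
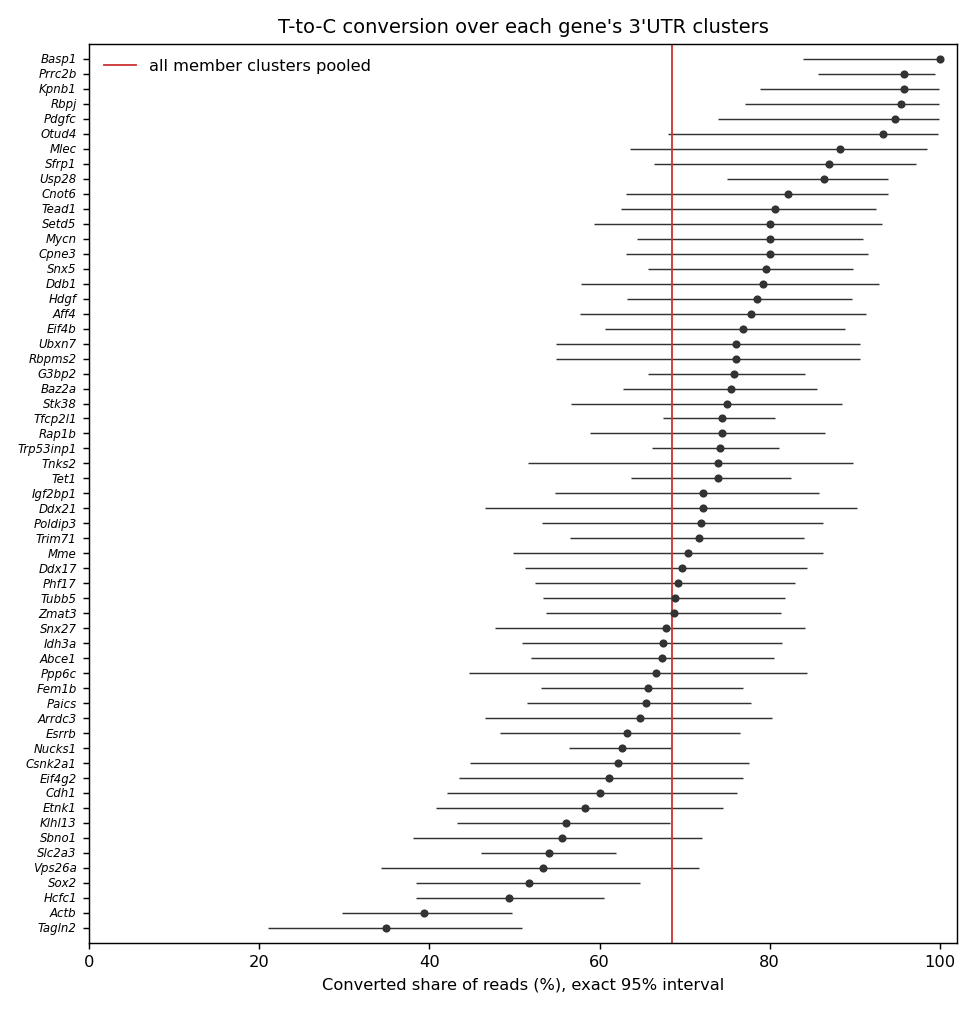
Converted share of reads over the 3'UTR clusters of each of the 59 genes (x, in percent) with exact 95% intervals, genes ordered by that share (y), and the pooled share of 68.5% as a line. Tagln2 stood lowest at 34.9% and Basp1 highest at 100%.

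By gene, the interval held the pooled share in 47 of 59 genes, lay above it in 6 and below it in 6. These intervals cover counting error alone, since reads copied by PCR are not independent, and the pooled share includes each gene's own reads. The sorting is thus a description and not a test. Above it stood Basp1 (100%), Prrc2b (95.8%), Kpnb1 (95.8%), Rbpj (95.5%), Pdgfc (94.7%) and Usp28 (86.4%). Apart from Usp28 these had no cluster above 13 reads. In such small clusters the floor on converted reads given above holds the share high, so their place is in part set by which clusters were kept. Below it stood Tagln2 (34.9%), Actb (39.4%), Hcfc1 (49.4%), Sox2 (51.7%), Slc2a3 (54.0%, interval 46.0 to 61.9) and Klhl13 (56.1%). In Hcfc1 the share was 85.7% at the most upstream cluster and 17.4% at the most downstream. The upstream one had 7 reads, where the same floor holds the share high, and the downstream one had 23 reads from 4 distinct sequences. Within a gene, the highest and the lowest cluster were a median of 42.9 percentage points apart.

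The conversion was also set beside that of other ESC 3'UTR clusters within bands of read count. In clusters with fewer than 10 reads it was 81.8% (interval 79.2 to 84.3) in the 59 genes and 81.7% (interval 80.4 to 83.0) in ESC-only genes with 1 or 2 clusters. With at least 4 converted reads in each member cluster, the share could not be under 80% at 5 reads or 44.4% at 9 reads. The level in this band is thus held high by which clusters were kept, and its closeness says little. In clusters with at least 10 reads it was 62.5% (interval 60.3 to 64.6) and 64.3% (interval 62.9 to 65.6). In genes bound in both cell types it was 78.8% (interval 75.8 to 81.5) and 59.3% (interval 57.5 to 61.1). The upper band is not matched for depth. Its largest cluster had 65 reads in the 59 genes, 135 in ESC-only genes with 1 or 2 clusters and 282 in genes bound in both. These differences were not tested.

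The ends of the reads, where RNase T1 leaves a G, could be compared on the plus strand only. The authors' column for the share of reads ending in G was 0 in 1145 of the 1270 minus-strand clusters of the ESC table, although 84.2% of their cluster sequences ended in G, and in 111 of the 1389 plus-strand clusters. In the 59 genes it was 0 in 117 of 121 minus-strand clusters, and those values were not used. On the plus strand, 78.3% of reads ended in G in the 59 genes (136 clusters), 76.6% in ESC-only genes with 1 or 2 clusters (393 clusters) and 63.5% in genes bound in both (128 clusters). The cluster sequence itself ended in G in 77.2%, 69.7% and 60.9% on the plus strand and in 92.6%, 91.8% and 95.5% on the minus strand. The other measures were also taken by strand. Conversion in the 59 genes was 70.8% on the plus strand (interval 68.5 to 73.1) and 66.0% on the minus strand (interval 63.4 to 68.5). Seed matches were in 5 of 136 plus-strand clusters and 10 of 121 minus-strand clusters, against 34 of 393 and 45 of 413 in ESC-only genes with 1 or 2 clusters. None of these differences was tested.

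Outside the 3'UTR, 20 of the 59 genes (33.9%) had another ESC cluster, against 16.9% of all ESC 3'UTR genes. There were 33 such clusters, 29 in coding sequence, 3 in 5'UTRs and 1 in an intron. The rule chose genes with many ESC clusters, with a median of 36 3'UTR cluster reads per gene against 10 for all ESC 3'UTR genes. The shares of 33.9% and 16.9% are thus not of genes of like depth, and the difference was not tested. Eif4g2 had 100 reads in 5 coding clusters, more than the 36 reads of its 3'UTR, and Sox2 had 73 reads in 2 clusters of its 5'UTR, more than the 64 reads of its 3'UTR. Slc2a3 had 45 reads in 1 coding cluster and Nucks1 29 reads in 1.

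In the myotube table, 58 of the 59 genes (98.3%) had no cluster of any class, against 84.5% of ESC 3'UTR genes, but the rule had already removed every gene with a myotube 3'UTR cluster. The exception was Eif4g2, with a coding cluster of 10 reads. No member cluster overlapped a myotube cluster or had one within 500 nt on the same strand. The smallest clusters held 4 reads in the ESC table and 5 in the myotube table, so a gene without a myotube cluster was below a calling limit and is not shown to be unbound.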

How the data were processed

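The deposited tables give each called cluster with its coordinates, its sequence, the annotated class and a gene symbol. Reads, distinct sequences and conversions are raw counts, deposited without normalization. The converted and G-ending shares are each a fraction from 0 to 1 per the file headers. The G-ending column was 0 in 1145 of 1270 minus-strand ESC clusters and was used on the plus strand only, after this was seen. The caller's own score columns, as deposited, were not used. Per the submitters' processing notes, bcl2fastq 2.17.1 and the mm10 build were used. Aligner, cluster caller and any pooling of libraries: not given in the sources used here. Blank lines (4 for ESCs, 1 for myotubes) were dropped.

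Clusters were taken with the class 3'utr and a gene symbol, and genes with at least 3 in ESCs and none in myotubes were kept. Of the 59 symbols 58 matched an Ensembl name, and all matched RefSeq, Phf17 through Jade1. Intervals are exact Clopper-Pearson 95% intervals that cover counting error alone, because reads copied by PCR and lacking molecular identifiers are not independent. With 1 library per group no test and no p-value was given. Of 104 miRNAs named for 40 families, 91 in 37 families had a RefSeq sequence, 31 of them in the ESC group. The members and all lists were chosen with earlier results of these data known. Named genes are those with the most clusters, most reads, closest clusters, repeated seed families, highest and lowest leading shares, and up to 4 per list, and others were named after their values were seen to describe each function group. The count functions were tested on simulated data. Python 3.11.15, pandas 2.3.3 and SciPy 1.17.1 were used. Alternatives covered reads per cluster, merging, cluster number, absence in myotubes, leading genes and the length of the seed match.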

Additional observations from a re-analysis of the deposited data

How the results depend on the processing

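Of 35 recomputed values, 25 stayed within the interval of the reported value, or within 1.5 times for the number of genes. With only clusters of at least 10 reads, 27 genes met the rule in place of 59, the median gap was 196 nt in place of 255 nt, the median leading share 38.6% in place of 42.5% and the converted share 61.7% in place of 68.5%. With at least 4 clusters per gene there were 29 genes, with 12.6% of the ESC 3'UTR clusters in place of 19.4% and a median leading share of 34.8%; fewer genes and more clusters per gene lower both by construction. Without Nucks1 and Tfcp2l1 the genes held 17.1% of these clusters, a share that leaving out members lowers by construction. Without the leading cluster of each gene the converted share was 72.1%. With seed matches of 6 nt in place of 7 nt, 14.4% of clusters held a match. Each 7 nt site contains its 6 nt site, so that share could not fall. The cause of these shifts was otherwise not tested. No paired analysis was possible because each group has 1 library. Depth limits the set, since 140 of the 257 clusters had fewer than 10 reads.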
